A study of Mus musculus with 29 samples.

Results

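The channel subunit genes Scn4b, Scn4a, Scn7a, Hcn2 and Hcn4 were examined in the mouse heart. They are 5 of the 29955 genes in the deposited expression table and were taken by symbol. They were selected on their measured values in this table, so their levels and differences are given below as a description and without a test. Tests are given for other genes of the family and for genes of channel partners, on lists chosen with earlier results of these data known. The values are FPKM, fragment numbers corrected for transcript length and for library size, so that levels can also be set beside each other between genes.

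Voltage-gated sodium channels open during the upstroke of the cardiac action potential. Each consists of a pore-forming alpha subunit and of beta subunits, which span the membrane and alter gating and surface expression. Scn4b encodes the beta 4 subunit. Scn4a encodes the pore of the sodium channel of skeletal muscle, which the heart expresses at a low level. Scn7a encodes an atypical alpha subunit (Nax) known from glia, peripheral nerve and other non-myocytes, where it is linked to the sensing of sodium. Hcn2 and Hcn4 encode channels that open on hyperpolarization and carry the pacemaker current. Hcn4 is the main form in the sinoatrial node, whereas Hcn2 is also found in working ventricular muscle.

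Heart failure (HF) was induced in male C57BL/6J mice aged 3 months at the start. Induction lasted 5 weeks, with L-NAME at 0.3 mg/ml, which inhibits nitric oxide synthases, and NaCl at 1% in the drinking water and, from the second week, a 28 day osmotic pump that delivered angiotensin II at 0.7 mg/kg/day. Recovery hearts went through the same 5 weeks and then had none of the agents, and Control mice had no induction. The 24 libraries used comprised 5 controls of week 19, 2 and 3 HF hearts of weeks 3 and 5, and 2, 2, 3, 2 and 5 Recovery hearts of weeks 7, 9, 11, 13 and 19. The labels give these recovery times as 2, 4, 6, 8 and 14 weeks after induction. Control week 19 was age matched to Recovery week 19 and 14 weeks further on than HF week 5, so a difference from HF week 5 also holds any difference by age. The labels name the whole heart or ventricle as the tissue, and the methods the frozen apical part. The p values measure the spread between libraries, since the columns carry no link to a labelled animal. In bulk tissue, fewer cells of a type and less RNA per cell cannot be told apart.

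Several libraries stood apart. All 10 cardiomyocyte genes checked, among them Tnnt2 and Ttn, were above 0 in every library. Their sum was 32134 and 26789 FPKM in HF week 3, below the 34064 to 49810 of every library of Recovery weeks 7 to 13. In Recovery week 19 it was 29847 to 47713 FPKM and overlapped HF week 3. It was 23976 in HF week 5 library 1, 43523 and 38145 in the other two of that week, and 37314 to 45150 in control. Myl7, the atrial myosin light chain, was at 1805 and 5773 FPKM in the HF week 3 libraries and at 18388, 152 and 6.16 in HF week 5, against at most 3.56 in any other library, so that HF week 5 library 2 also stood above the libraries outside HF. The sum of 5 atrial genes (Myl7, Myl4, Sln, Bmp10, Nppa) was 7737 and 14050 FPKM in HF week 3, 2229 to 81735 in HF week 5 and 89.6 to 349 in control. In recovery it was 173 to 2435, and the highest of these, in library 2 of week 9, was almost all Nppa (2426), as was the 2229 of HF week 5 library 3 (2214). Nppa was listed at 0 in both HF week 3 libraries. HF week 3 library 1 also had only 12816 genes above 0, against 16339 to 18091 in the others. Relative depth, read from the steps between low values, was 0.751 to 1.40 over 23 libraries. HF week 3 library 1 showed no steps, and the absolute depth is unknown. The 10 most abundant genes held 27.9% to 37.4% of all FPKM in Recovery weeks 7 to 13, 19.8% and 37.5% in HF week 3, and 14.6% to 18.8% in the libraries of weeks 5 and 19.

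The promoters of 4 of the genes are shown, because Scn4b, Scn4a and Hcn4 were low together in HF and Scn7a was not. Each is the 250 bases before the annotated gene start in RefSeq, build GRCm38.p6, read 5′ to 3′ on the strand of the gene; the expression values themselves were made on MGSCv37. All 5 genes were matched. Capitals mark matches, on both strands, to 6 short motifs: the E-box (CANNTG), the GATA factor motif (GATAA), the T-box motif (AGGTGT), the NKX2-5 motif (AAGTG), the TEAD motif (GGAATG) and the SP/KLF motif (GGGCGG). An E-box and a T-box match can overlap where CAGGTGT occurs.
Scn4b, chr9:45138374-45138623, + strand: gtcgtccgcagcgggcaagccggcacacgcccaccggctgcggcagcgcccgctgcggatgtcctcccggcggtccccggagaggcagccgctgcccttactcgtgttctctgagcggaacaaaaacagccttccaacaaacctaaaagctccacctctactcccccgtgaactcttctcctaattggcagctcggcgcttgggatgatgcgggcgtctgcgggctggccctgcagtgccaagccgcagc
Scn4a, chr11:106349391-106349640, - strand: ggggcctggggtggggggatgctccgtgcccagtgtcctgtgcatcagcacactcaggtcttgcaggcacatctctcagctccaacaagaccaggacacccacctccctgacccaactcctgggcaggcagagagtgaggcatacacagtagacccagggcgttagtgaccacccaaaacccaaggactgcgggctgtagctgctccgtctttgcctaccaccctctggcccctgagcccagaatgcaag
Hcn4, chr9:58822699-58822948, + strand: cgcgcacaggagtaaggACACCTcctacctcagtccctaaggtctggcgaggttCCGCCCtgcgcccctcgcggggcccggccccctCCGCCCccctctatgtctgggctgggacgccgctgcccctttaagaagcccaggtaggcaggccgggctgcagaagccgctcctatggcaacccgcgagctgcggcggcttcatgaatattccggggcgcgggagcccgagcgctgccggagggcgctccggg
Scn7a, chr2:66784911-66785160, - strand: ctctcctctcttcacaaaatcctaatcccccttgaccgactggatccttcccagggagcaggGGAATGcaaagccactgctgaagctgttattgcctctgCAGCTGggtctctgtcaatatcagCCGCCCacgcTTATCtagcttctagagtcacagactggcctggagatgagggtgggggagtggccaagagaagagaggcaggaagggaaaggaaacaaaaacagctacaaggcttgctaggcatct

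The Scn4b and Scn4a windows held none of these letters. The Hcn4 window held 1 T-box and 2 SP/KLF matches, and that of Scn7a 1 each of E-box, GATA, SP/KLF and TEAD. The Hcn2 window (chr10:79716384-79716633, + strand) held 1 E-box and 3 SP/KLF matches. Over 32851 promoters of the same length, the shares with a match were 66.2% for the E-box, 40.7% for NKX2-5, 32.7% for SP/KLF, 22.6% for GATA, 12.6% for TEAD and 11.8% for the T-box. GC content was 66.0% for Scn4b, 61.6% for Scn4a, 53.2% for Scn7a, 70.4% for Hcn2 and 71.2% for Hcn4, with a median of 52.4% over all promoters. In the annotation, Scn4b lies next to Scn2b and Scn7a next to Scn9a, both of the same family. Scn2b was at no more than 0.314 FPKM in any library, and Scn9a was listed at 0 in all of them.

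Scn4b had the highest mean level of the 5 genes in control and had its lowest levels in HF. In Control week 19 the libraries were at 12.7, 12.5, 14.9, 12.1 and 5.17 FPKM. They were at 0.556 and 0.600 in HF week 3 and at 0.346, 2.10 and 1.84 in HF week 5. All 5 HF libraries thus lay below every control, and below every recovery library, the lowest of which was at 4.08. For HF week 5 alone, 14.7% of all genes were below every control. The share for all 5 HF libraries together, here and for Scn4a and Hcn4 below, was not calculated. The recovery libraries were at 14.9 and 12.7 FPKM in week 7, 6.71 and 5.67 in week 9, 5.41, 5.89 and 4.08 in week 11, and 7.90 and 6.71 in week 13. In Recovery week 19 they were at 11.2, 11.03, 13.8, 10.4 and 7.88. Week 7 was therefore at the level of the controls, weeks 9 to 13 lay between HF and most of the controls, and week 19 overlapped the controls.

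Scn4a was also lowest in HF, at a lower level throughout. Control libraries were at 2.49, 2.52, 3.39, 2.60 and 0.846 FPKM. HF week 3 was at 0.02004 and 0.207, and HF week 5 at 0.358, 0.807 and 0.386. Control library 5 and the second HF week 5 library were close, but no HF library reached a control. Recovery gave 3.09 and 3.41 in week 7, 1.82 and 1.51 in week 9, 1.06, 1.49 and 0.747 in week 11, 1.26 and 1.38 in week 13, and 2.63, 2.20, 2.20, 2.37 and 1.25 in week 19. The lowest of these, library 3 of week 11, was below the highest HF week 5 library. The sum of 12 genes of skeletal muscle, the tissue best known for Scn4a, did not follow Scn4a: it was 32.5 to 108 FPKM in HF week 3 and 14.8 to 38.9 in HF week 5, against 10.8 to 14.0 in control, and in HF week 3 library 1 it rested on 5 genes above 0. Its genes did not move as one, as a pair picked after their values were seen shows. Cacna1s, the calcium channel of skeletal muscle, was at 0.750 and 0.723 FPKM in HF week 3 and 0.503, 2.39 and 2.32 in HF week 5, against 3.06 to 3.98 in control. Actn3, an actinin of fast fibres, was listed at 0 and at 1.46 in HF week 3 and at 2.69, 0.326 and 0.0391 in HF week 5, against at most 0.229 in control.

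Hcn4 was the least abundant. It was at 0.439, 0.533, 0.967, 1.02 and 0.196 FPKM in control, listed at 0 and at 0.0218 in HF week 3, and at 0.126, 0.162 and 0.0719 in HF week 5. Recovery libraries were at 0.419 and 0.854 in week 7, 0.442 and 0.409 in week 9, 0.200, 0.261 and 0.146 in week 11, 0.266 and 0.293 in week 13, and 0.907, 0.607, 0.733, 1.31 and 0.187 in week 19. Every HF library was below every control, library 3 of Recovery week 11 was within the range of HF week 5, and those of HF week 3 were below all others. With a mean of 0.440 over the libraries Hcn4 missed the minimum of 0.5 FPKM, and 4 of the 5 genes passed it. Of 11 genes of the conduction system and node 9 to 11 were above 0 in each library, with sums of 36.3 to 44.3 FPKM in HF and 33.4 to 44.1 in control. Tbx3, a transcription factor of the node in that list, was at 1.61 to 2.46 FPKM in HF and at 2.60 to 4.10 in control, while in Recovery weeks 7 to 13 it was at 1.43 to 4.05 and overlapped HF. Shox2, another factor of the node in the list, was at 1.21 and 0.480 in HF week 3 and at 1.36 in HF week 5 library 1, against 0.120 to 0.241 in control, with the other two libraries of HF week 5 at 0.101 and 0.237. Both were picked after their values were seen.

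Scn7a was the only one of the 5 with its highest levels in HF. Control libraries were at 2.18, 2.52, 1.55, 1.90 and 3.19 FPKM, HF week 3 at 3.32 and 4.95, and HF week 5 at 7.77, 2.99 and 3.69. The groups overlapped, since control library 5 was above the second HF week 5 library. All recovery libraries were between 1.93 and 3.48. Beside it, the sum of 8 fibroblast genes was 740 to 747 FPKM in HF week 3, 357 to 707 in HF week 5 and 253 to 360 in control. In recovery it was 269 to 679, with the highest value in library 3 of week 11, and overlapped HF week 5. The sum of 6 endothelial genes was 394 to 501, 356 to 456 and 249 to 316 in the same groups and 241 to 281 in recovery, so that it was higher in HF without overlap. The sum of 9 genes of Schwann cells and nerve was 5.94 to 10.3, 3.33 to 14.0 and 5.39 to 7.33. The part of these cells in the Scn7a values was not tested.

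Hcn2 had no common direction in the HF week 5 libraries. It was at 9.02, 9.47, 8.93, 7.89 and 5.35 FPKM in control, 5.73 and 3.76 in HF week 3, and 3.04, 9.98 and 8.44 in HF week 5. HF week 5 library 1, the library with the most Myl7, was thus the lowest of all 24, and the other two were at or above the middle of the controls' range. Recovery was at 8.04 and 11.5 in week 7, 10.1 and 11.9 in week 9, 8.07, 7.78 and 5.00 in week 11, 7.37 and 7.29 in week 13, and 5.35, 8.72, 8.27, 6.77 and 8.90 in week 19.

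**Figure D1:**
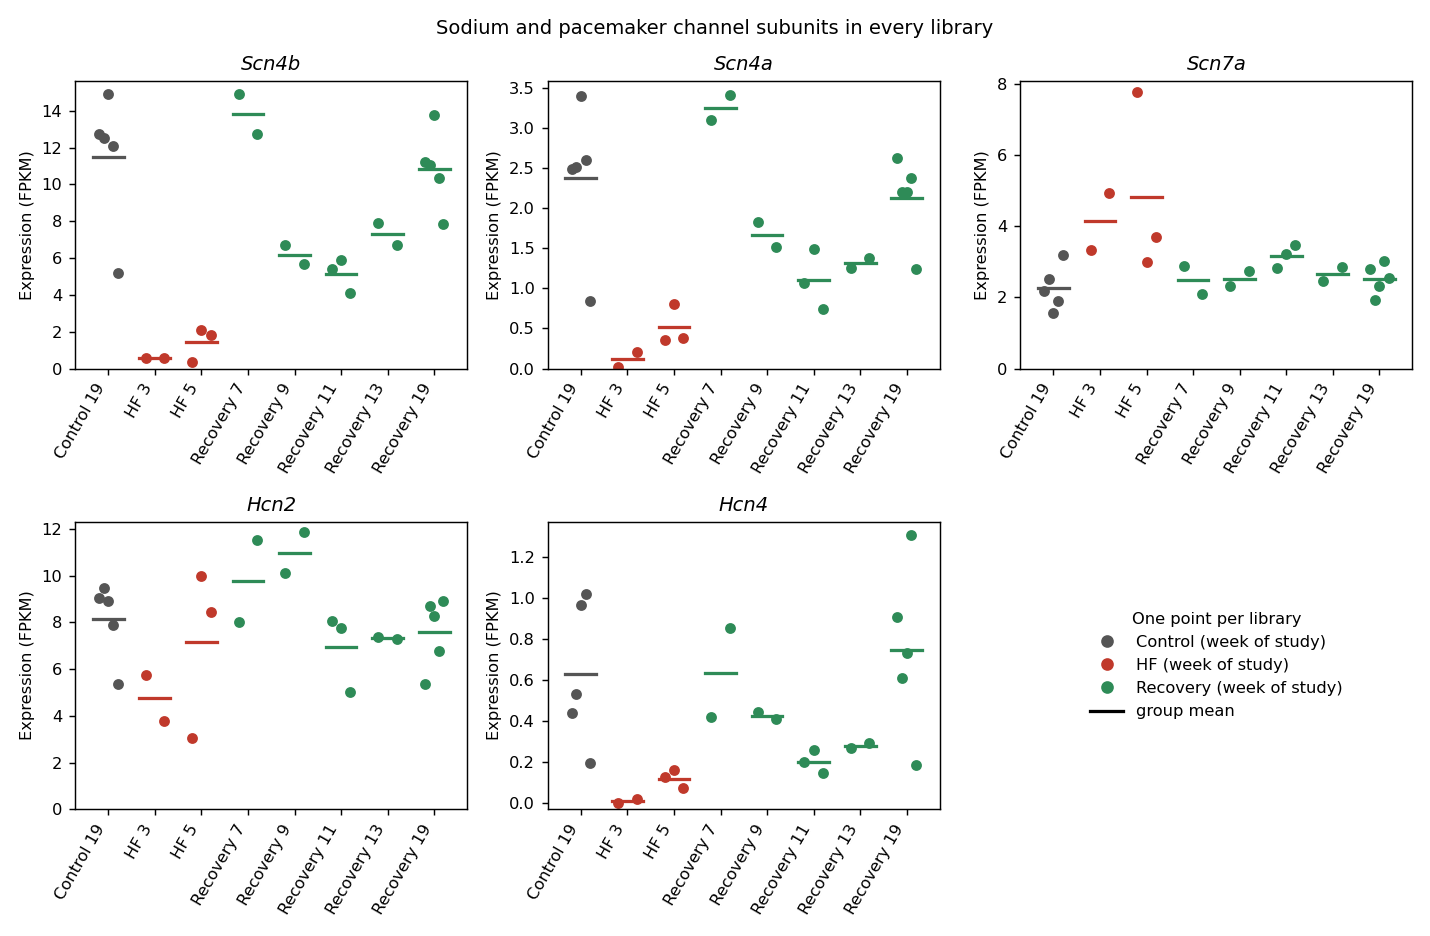
Expression (FPKM, linear axis) of the 5 genes in each of 24 libraries by group, with the group mean as a bar. Scn4b, Scn4a and Hcn4 have their lowest points in HF, Scn7a has its highest point in HF week 5 library 1 (7.77), and Hcn2 its lowest in the same library (3.04).

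The ratio of Scn4b to Scn7a was turned over in HF. Scn4b was below Scn7a in all 5 HF libraries, at ratios of 0.0445 to 0.701, and above it in all 19 others, at 1.17 to 9.58. These ratios rest on the libraries with which the genes were chosen and are given as a description.

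Ordered by group mean, Scn4b was highest in Recovery week 7 (13.8 ± 1.51 FPKM, SD, n = 2), followed by Control week 19 (11.5 ± 3.69, n = 5), Recovery week 19 (10.8 ± 2.10, n = 5), week 13 (7.31 ± 0.847, n = 2), week 9 (6.19 ± 0.736, n = 2), week 11 (5.13 ± 0.939, n = 3), HF week 5 (1.43 ± 0.945, n = 3) and HF week 3 (0.578 ± 0.0313, n = 2). Of these neighbours, only Recovery week 11 and HF week 5 had ranges that did not overlap. For Scn4a the order was the same but for weeks 9 and 13, which changed places, and the ranges were apart at 2 steps, between Recovery weeks 9 and 13 and between HF weeks 5 and 3, while Recovery week 11 overlapped HF week 5. For Hcn4 the order ran from Recovery weeks 19 and 7 over control and Recovery weeks 9, 13 and 11 to HF weeks 5 and 3, and the ranges were apart between Recovery weeks 9 and 13, 13 and 11, and HF weeks 5 and 3. For Scn7a and Hcn2 all neighbours overlapped.

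Recovery weeks 7 to 13 were then set beside HF week 3. The difference was fitted with limma on log2(FPKM + 0.5), a scale that understates the change of low genes, over 12759 genes. As the subunit genes were chosen with the whole table at hand, no p value is given for them here or within recovery. Scn4b had a log2 difference of 2.90 (SE 0.335) and Scn4a of 1.85 (SE 0.289), both with the higher level in recovery. That of Hcn2 was 0.81 (SE 0.300) and that of Scn7a -0.52 (SE 0.246). For Hcn4, below the minimum, the difference was 0.76 (SE 0.283). It was 2.04 with a pseudocount of 0.1.

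The libraries of recovery and HF week 3 did not overlap for Scn4b, Scn4a and Hcn4, all higher in recovery, as for 19.4% of all genes in that direction and 17.6% in the other. With only 1 HF week 3 library kept, Scn4b was at 2.87 and 2.92 on the log2 scale, Scn4a at 1.63 and 2.08, and Hcn2 at 1.08 and 0.54. The difference of Scn7a was smaller in size with library 1 kept (3.32 FPKM) than with library 2 kept (4.95 FPKM). HF week 3 then has no spread of its own. Both HF week 3 libraries hold the atrial genes and have the lower cardiomyocyte sums named above, and the part of these in the comparison was not tested.

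**Figure D2:**
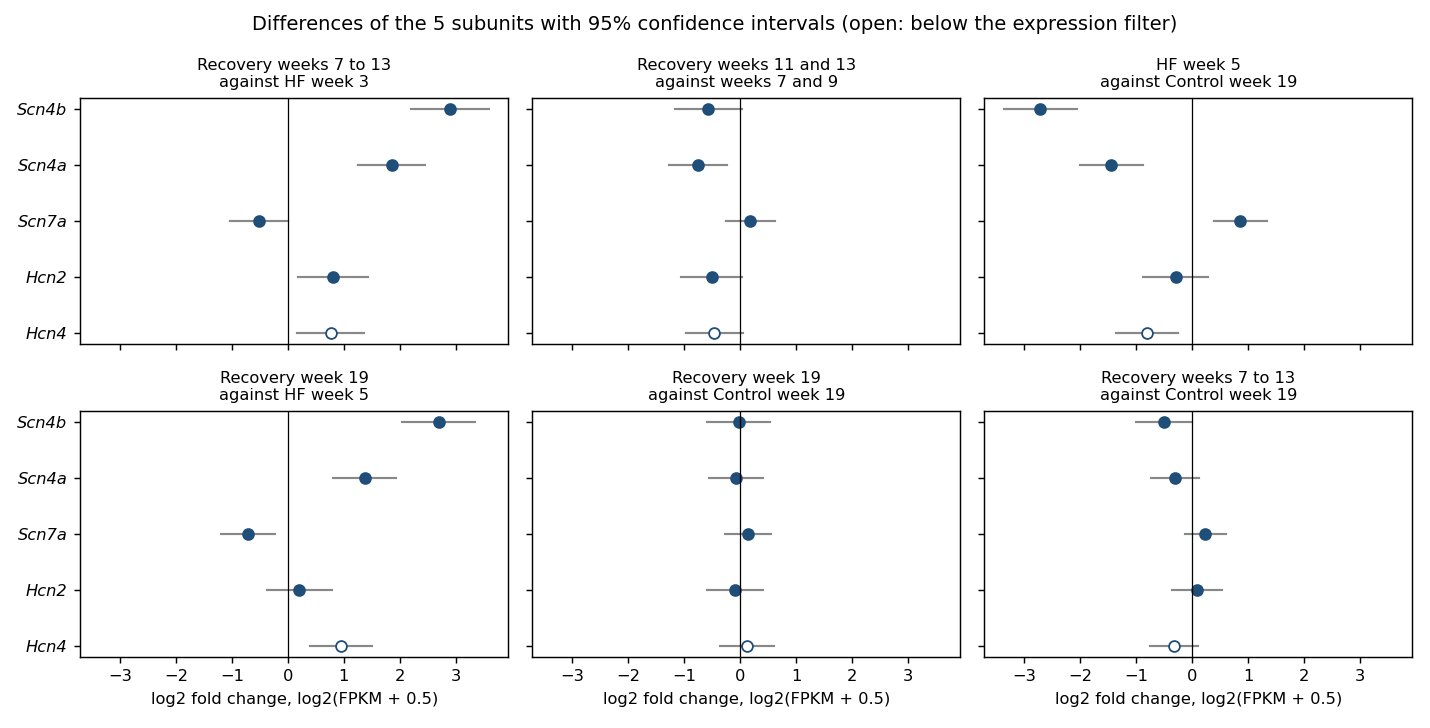
Log2 differences of the 5 genes, on the scale log2(FPKM + 0.5), in 6 comparisons, with 95% confidence intervals from limma; open points mark Hcn4, which was below the minimum of 0.5 FPKM. Scn4b and Scn4a are highest against HF in both upper left and lower left panels.

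Within recovery, weeks 11 and 13 were compared with weeks 7 and 9. Over all genes limma called 0.00784% higher (1 gene) and 0.00% lower, against 674 and 604 genes at an unadjusted p under 0.05. More genes were called both ways when only these groups were fitted, with the counts given in the section on processing. The log2 differences were -0.75 for Scn4a (SE 0.250), -0.57 for Scn4b, -0.51 for Hcn2, 0.18 for Scn7a and -0.46 for Hcn4. Scn4a and Hcn4 were lower without overlap in weeks 11 and 13, as were 2.62% of all genes, while 3.09% were higher without overlap. Long transcripts were also lower relative to short ones in most of the later libraries. The median log2 deviation of transcripts over 5000 bases minus that of transcripts under 1500 bases was -0.34 to 0.11 in weeks 11 and 13 and -0.20 to 0.36 in weeks 7 and 9. With the trend on transcript length removed, the difference of Scn4a was -0.67. The sum of 6 immune genes was 333 to 533 FPKM in weeks 11 and 13 and 155 to 304 in weeks 7 and 9, without overlap. That of 8 fibroblast genes was 389 to 679 and 269 to 398, with overlap. The part of these cells in the differences was not tested.

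In HF week 5 compared to Control week 19, Scn4b had a log2 difference of -2.72 (95% interval -3.37 to -2.07), Scn4a of -1.44 (-2.005 to -0.88), Hcn4 of -0.81 (-1.37 to -0.25), Hcn2 of -0.29 (-0.88 to 0.29) and Scn7a of 0.87 (0.39 to 1.34). Over all genes 11.6% were called higher and 12.4% lower in this comparison. The libraries did not overlap for Scn4b, Scn4a and Hcn4, as for 14.7% of all genes in that direction and 14.8% in the other. Because the genes were chosen with these values known, nothing is read from these counts, and the intervals here and below describe the spread and are not a test. Without HF week 5 library 1, which has the largest sum of atrial genes, the values were -2.20 for Scn4b, 0.49 for Scn7a and 0.19 for Hcn2, so that the direction of Hcn2 rested on that library.

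In Recovery week 19 compared to the same HF week 5 libraries, the log2 differences were 2.70 for Scn4b (2.04 to 3.35), 1.37 for Scn4a (0.81 to 1.93), 0.94 for Hcn4 (0.39 to 1.5002), 0.20 for Hcn2 (-0.38 to 0.79) and -0.72 for Scn7a (-1.20 to -0.24). Of all genes 12.3% were called higher and 12.0% lower, and 14.1% were higher and 12.7% lower without overlap. Without HF week 5 library 1, Scn4b was at 2.18, Scn7a at -0.35 and Hcn2 at -0.28. Against Control week 19, Recovery week 19 differed by -0.02 for Scn4b (-0.59 to 0.54), -0.07 for Scn4a (-0.56 to 0.42), 0.14 for Scn7a (-0.27 to 0.56), -0.09 for Hcn2 (-0.59 to 0.42) and 0.13 for Hcn4 (-0.35 to 0.61). Recovery weeks 7 to 13 were at -0.50 for Scn4b (-1.003 to -0.003), -0.31 for Scn4a (-0.74 to 0.13), -0.33 for Hcn4 (-0.75 to 0.10), 0.23 for Scn7a (-0.14 to 0.60) and 0.09 for Hcn2 (-0.36 to 0.54) against control. Control library 5, the lowest control for Scn4b, Scn4a and Hcn4, lowers their control means in these differences.

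Library 5 of each week 19 group was low for the same subunits. Control library 5 was the lowest control for Scn4b (5.17 FPKM, next 12.1), Scn4a (0.846, next 2.49), Hcn4 (0.196, next 0.439) and Hcn2 (5.35, next 7.89), and the highest for Scn7a (3.19, next 2.52). Recovery library 5 was the lowest of its group for Scn4b (7.88, next 10.4), Scn4a (1.25, next 2.20) and Hcn4 (0.187, next 0.607), but had the highest Hcn2 (8.90). The index of long minus short transcripts was -0.18 in control library 5 and 0.03 to 0.17 in the other 4 controls, and -0.46 in recovery library 5 and -0.11 to 0.53 in the other 4. Without both libraries, an alternative chosen after seeing the data, the difference of recovery and control was -0.17 for Scn4b and -0.18 for Scn4a. The part of transcript length or RNA quality in these values was not tested.

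**Figure D3:**
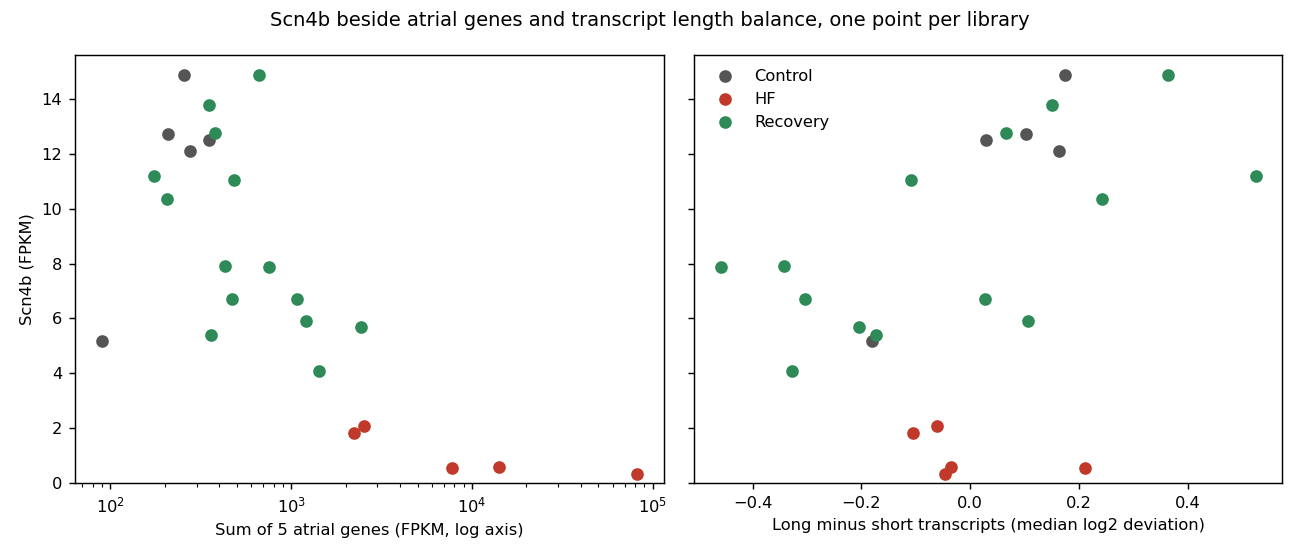
Scn4b (FPKM) in 24 libraries against the sum of 5 atrial genes (FPKM, log axis, left) and against the index of long minus short transcripts (median log2 deviation, right), coloured by group. All HF points lie at or below 2.10 FPKM and at atrial sums of 2229 or more, the recovery point at a sum of 2435 lies at 5.67 FPKM, and the single low control point is library 5 (5.17 FPKM, index -0.18).

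Other sodium and pacemaker channel genes were examined on 11 rows of the table for 10 genes, as Scn2a is listed under 2 symbols. Scn10a, an alpha subunit known from sensory neurons, was the only one of them to pass the minimum. It was at 1.18, 1.46, 1.34, 1.11 and 0.185 FPKM in control, listed at 0 and at 0.526 in HF week 3, and at 1.42, 0.639 and 0.704 in HF week 5. Control library 5 was again the lowest control, and HF week 5 overlapped the controls. Its log2 difference was 0.91 in Recovery weeks 7 to 13 against HF week 3 (SE 0.394, adjusted p = 0.0591 from limma), -0.08 in HF week 5 against control (adjusted p = 0.890) and 0.20 in Recovery week 19 against HF week 5 (adjusted p = 0.724), and it was called in none of these. Against HF week 3 it was at 1.43 without library 2 (adjusted p = 0.01997 from limma) and at 0.39 without library 1 (adjusted p = 0.598).

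Of 17 genes on the list of channel partners 14 were tested. In Recovery weeks 7 to 13 against HF week 3, 7 were called higher and 2 lower, beside 28.0% and 23.9% of all genes, with a median difference of 0.59. Fgf13, a fibroblast growth factor homologous factor that binds the tail of the sodium channel, was at 2.76 and 5.32 FPKM in HF week 3 and at 16.9 to 25.6 in Recovery weeks 7 to 13, a log2 difference of 2.36 (SE 0.227, adjusted p = 2.65e-07 from limma). It was also lower in HF week 5 (5.51, 11.7 and 10.3) than in control (16.0 to 25.3), by -1.30 (SE 0.211, adjusted p = 0.000354). Its relative Fgf12 went the other way. It was at 4.62 and 7.56 FPKM in HF week 3 and at 20.9 in HF week 5 library 1, the 3 libraries with the highest Myl7, and at no more than 0.494 in every other library. HF week 5 library 2, with Myl7 at 152, was at 0.375. Its difference of -3.30 in recovery against HF week 3 was called (adjusted p = 0.00116), and that of 1.804 in HF week 5 against control was not (adjusted p = 0.0624).

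Popdc2, Popdc3 and Bves encode cAMP-binding membrane proteins of striated muscle. All 3 were called higher in Recovery weeks 7 to 13 than in HF week 3, by 1.37, 2.21 and 0.57 (adjusted p = 7.64e-05, 0.000702 and 0.00121 from limma). Popdc3 was at 0.161 FPKM in HF week 3 library 1 and at 7.46 in library 2. Gpd1l, a regulator of sodium channel trafficking, was higher by 1.03, Ank2, an ankyrin that anchors channels, by 0.84, and Nedd4l, a ubiquitin ligase of the channels, by 0.83 (adjusted p = 0.000209, 0.00059 and 0.0103). Cav3, the caveolin of muscle, had a difference of -0.48 (adjusted p = 0.0458 from limma) and is named here outside the rule for named genes, after its values were seen. Several of these rest on HF week 3 library 1. Nedd4l was at 0.513 FPKM there and at 2.60 in library 2, inside the 2.01 to 3.31 of Recovery weeks 7 to 13, and Gpd1l was at 3.53 and 7.40 against 8.89 to 13.6. Without that library, an alternative chosen after seeing the data, 4 of the 14 were called higher and 1 lower, beside 14.8% and 13.5% of all genes in the same fit. The calls of Nedd4l (0.02, adjusted p = 0.953), Popdc3 (0.42, adjusted p = 0.0542), Bves (0.39, adjusted p = 0.0689) and Cav3 (-0.14, adjusted p = 0.694) from limma were lost there. Gpd1l was still called at 0.54, Popdc2 at 0.84 and Ank2 at 0.66. Without library 2 instead, 8 were called higher and 3 lower, beside 35.9% and 27.5% of all genes. In both fits HF week 3 is 1 library, assumed to vary like the other groups. Between HF week 5 and control 0 of the 14 were called higher and 3 lower, beside 11.6% and 12.4% of all genes, with a median of -0.17 beside 0.04 over all genes. In Recovery week 19 against HF week 5, 3 were called higher and 0 lower, beside 12.3% and 12.0%, with a median of 0.16 beside -0.04. These were Fgf13, Popdc2 and Gpd1l in both comparisons, which share the HF week 5 libraries. Popdc2 differed by -0.78 and 0.74 and Gpd1l by -0.57 and 0.50. Without HF week 5 library 1, Fgf13 was the 1 partner called in each, lower in HF week 5 than in control, where 4.21% of all genes were called higher and 6.45% lower, and higher in Recovery week 19, where they were 6.90% and 5.27%. For Popdc2, HF week 5 libraries 2 and 3 were at 195 and 159 FPKM, against 187 to 302 in control. For Gpd1l they were at 8.60 and 8.07, against 9.87 to 12.4 in control. In weeks 11 and 13 against weeks 7 and 9, 0 of the 14 were called.

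**Figure D4:**
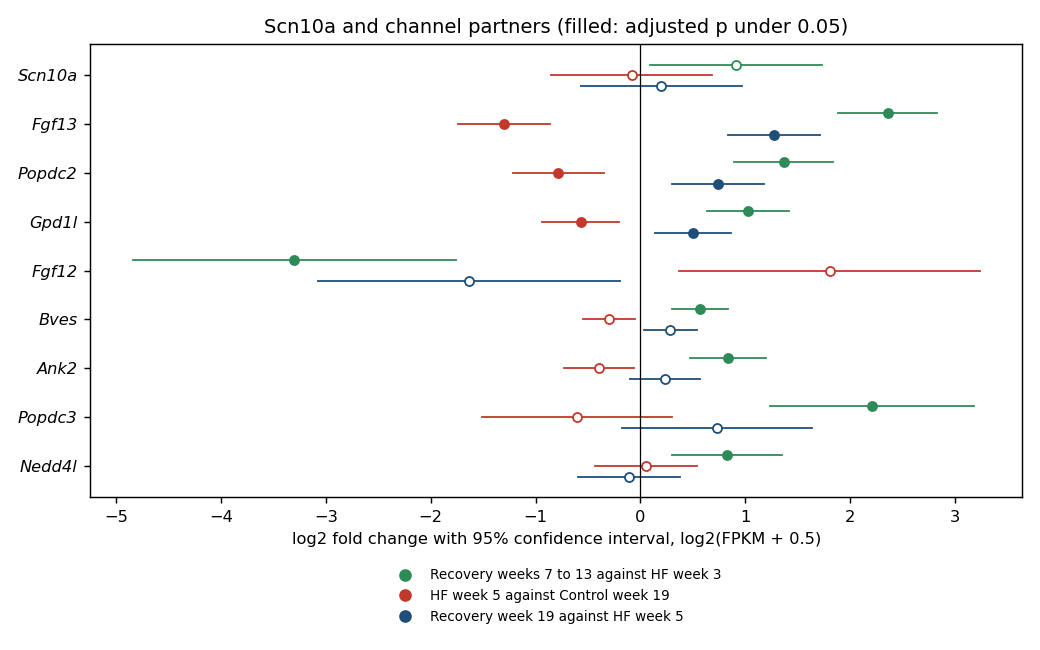
Log2 differences on the scale log2(FPKM + 0.5) with 95% confidence intervals from limma for Scn10a and 8 partner genes in 3 comparisons by colour; filled points passed an adjusted p under 0.05. Fgf13, Popdc2 and Gpd1l are filled in all 3 comparisons, and Fgf12 lies on the opposite side.

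Over the 24 libraries Scn4b and Scn4a had a Pearson r of 0.946 (Spearman rho 0.934) on log2(FPKM + 0.5), Scn4a and Hcn4 of 0.879 (0.917) and Scn4b and Hcn4 of 0.792 (0.850). Scn7a had negative values with all others, -0.823 with Scn4b, -0.769 with Hcn2, -0.736 with Scn4a and -0.631 with Hcn4. These values describe the libraries, which share the split between HF and the rest and the differences in transcript length balance. Among 12758 other genes, those most like Scn4b were Rap1gap2 (r = 0.986), Fam20b (0.983) and Opa3 (0.979). For Scn4a they were Opa3 (0.966), Dennd4b (0.962) and Lrrc20 (0.962), and Opa3, which encodes a mitochondrial protein, stood in both lists. Rbms3 (0.895), Gng2 (0.890) and Itgav (0.886), the integrin alpha V subunit, were most like Scn7a. Hcn2 was followed most closely by Trim54 (0.866), a ubiquitin ligase of muscle, Acsf3 (0.850) and Sema3b (0.834).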

How the data were processed

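Poly(A) RNA of mouse hearts was sequenced from both ends. The authors used TopHat for alignment to MGSCv37 (mm9) and calculated expression with Cuffdiff, and the values deposited by the authors are FPKM for 29955 genes and 29 columns. The annotation and the scaling between libraries are not given in the sources used here. An exact 0 can be a failed estimate.

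The week in a column's name gave its group. Of the columns, 5 named for week 5 controls were not used, because only 4 samples have that label. Recovery week 9 has 2 columns for 3 samples. Control week 19 therefore served as control.

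The genes and lists were chosen with earlier results of these data known. The 12759 genes averaging 0.5 FPKM or more were fitted on log2(FPKM + 0.5) in R 4.3.3 by limma 3.58.1, with 8 group means, eBayes with a trend and 16 residual degrees of freedom. Calls were made at a Benjamini-Hochberg adjusted p under 0.05. Tests planned for the subunits in Recovery weeks 7 to 13 are not reported, because the genes were chosen on values of this table. Python 3.11.15 was used with pandas 2.3.3, numpy 2.4.6 and matplotlib 3.10.9. The calculations were tested on simulated data. The genes named are the 5 subunits, the other family genes, up to 8 partners called in at least 1 comparison with the smallest p in HF week 5 against control, and the 3 genes most like each subunit, with Cav3 beside them. The results of 3 family genes are not reported here. Alternatives were pseudocounts of 0.1 and 1, no minimum or one of 1 FPKM, median centring, quantile normalization, robust eBayes, unadjusted calls, fewer groups in the fit, and leaving out each library in turn. Removal of a trend on transcript length (loess, span 0.3, lengths for 84% of genes), and fits without the 3 HF libraries highest in Myl7, without libraries 5 or, for the partners, without each HF week 3 library, were chosen after seeing the data. Since the absolute depth is unknown, no counting error is given.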

Additional observations from a re-analysis of the deposited data

Results flagged for a closer look

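Scn4b was at 5.17 FPKM in Control week 19 library 5, far from the other 4 controls at 12.1 to 14.9. The low level in this library was already known when the genes were chosen, so its distance from the others of the group is a description and not a check.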

How the results depend on the processing

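No paired analysis was possible because the columns carry library numbers with no link to a labelled animal. Scn4b, Scn4a, Hcn2 and Scn7a kept the direction of their difference in Recovery weeks 7 to 13 against HF week 3 under every alternative run. Hcn2 ranged from 0.54 to 1.08 with libraries left out. Each group has its own mean in the fit, so its 0.81 without the minimum on FPKM could not differ from the main value. For the same reason the -0.52 of Scn7a was fixed when only the groups compared were fitted. So was the -0.75 of Scn4a in weeks 11 and 13 against weeks 7 and 9. The calls could change: all genes called in weeks 11 and 13 were then 169 higher and 57 lower, and partners lower in HF week 5 were 5. With a pseudocount of 0.1, Hcn4 was at 2.04, -0.85, -1.60 and 1.79 in the 4 comparisons, Scn4a at -1.95 and 1.89 in the last 2 of these, and 3 genes were higher in weeks 11 and 13. Without the minimum, 4 genes were higher and 3 lower there. At an unadjusted p these genes of weeks 11 and 13 were 674 and 604, the partners in HF week 5 were 1 higher and 5 lower, and 1 was lower in Recovery week 19. HF week 5 library 1 and both HF week 3 libraries, which have the highest Myl7, were also left out together. HF week 5 against control then gave -2.20 for Scn4b, 0.49 for Scn7a and 0.19 for Hcn2. Recovery week 19 against HF week 5 gave 2.18, -0.35 and -0.28. HF week 3 has no part in these differences, so they repeat those without HF week 5 library 1 alone.

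With each library left out in turn, all genes called ran from 1884 to 4560 higher and 1717 to 3496 lower in Recovery weeks 7 to 13 against HF week 3, with the lowest of both without HF week 3 library 1. In weeks 11 and 13 they ran from 0 to 4 and 0 to 1. In HF week 5 against control Scn4b ran from -3.01 to -2.20, Scn7a from 0.49 to 1.12 and Hcn2 from -0.59 to 0.19, and partners from 0 to 1 higher and 1 to 4 lower. In Recovery week 19 against HF week 5 Scn4b ran from 2.18 to 2.99, Scn7a from -0.97 to -0.35 and Hcn2 from -0.28 to 0.50, and partners from 1 to 4 higher and 0 to 1 lower. The cause was not tested.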

Other observations

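A further subunit gene below the minimum of 0.5 FPKM was noted after its values were seen and was not tested. Scn3b, the beta 3 subunit, was at 0.618, 0.380 and 0.471 FPKM in HF week 5, above the 0.108 to 0.294 of the controls. Of the genes that passed the minimum, 14.8% were higher without overlap in that comparison. In HF week 3 Scn3b was at 0.604 in library 2 but listed at 0 in library 1.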
